A study of Mus musculus with 12 samples.

Results

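The genes described here carry the thyroid hormone signal into a cell, and they were followed through denervated fat of the mouse: the deiodinases Dio1 and Dio2, the receptors Thra and Thrb, the transporter Slc16a10 and the receptor target Klf9. They were taken by symbol from the deposited gene tables, in which these 6 are among 47729 genes. Of the 6, 5 had enough reads to be tested for differences between depots, and Dio1 did not. The samples were 12 libraries of interscapular brown adipose tissue (BAT) and of inguinal, retroperitoneal and epididymal white adipose tissue (IWAT, RWAT and EWAT), with 3 libraries per depot. The animals were wild type C57BL/6J males of 6 to 10 weeks on a standard rodent diet that the sample titles mark as low-fat, and every depot had been surgically denervated. No innervated fat was analysed here, so the depots can be compared with each other but not with their innervated state. The labels do not tie the libraries of a depot to separate animals, so a p-value here reflects no more than library-to-library spread, part or all of which may be technical.

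Thyroid hormone leaves the gland mostly as thyroxine (T4), a precursor that binds the nuclear receptors weakly. Dio2 encodes type 2 deiodinase, a selenoenzyme of the endoplasmic reticulum that converts T4 to the active hormone T3 inside the cell, and in brown fat the gene is known to be induced by noradrenaline through cAMP. Dio1 encodes the deiodinase of liver and kidney, and Dio3 encodes the enzyme that inactivates T4 and T3. Slc16a10 (MCT10) carries aromatic amino acids and thyroid hormone across the plasma membrane. Thra and Thrb encode the receptors, which bind DNA beside a retinoid X receptor, and Klf9 is a zinc-finger transcription factor gene that T3 induces in many tissues.

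The promoters of Dio2, Klf9 and Thrb are shown first, because Dio2 is the gene with the widest range here and Klf9 and Thrb ran together across the libraries. Each is the 250 bases before the transcription start annotated by RefSeq on GRCm38.p6, printed 5′ to 3′ along the gene's own strand, with matches to the motifs searched in capitals.
Dio2, chr12:90739039-90739288, minus strand: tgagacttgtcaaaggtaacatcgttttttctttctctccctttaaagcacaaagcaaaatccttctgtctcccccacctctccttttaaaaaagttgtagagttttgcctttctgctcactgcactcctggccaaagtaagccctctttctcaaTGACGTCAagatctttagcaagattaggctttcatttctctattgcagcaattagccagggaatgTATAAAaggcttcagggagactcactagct
Klf9, chr19:23140976-23141225, plus strand: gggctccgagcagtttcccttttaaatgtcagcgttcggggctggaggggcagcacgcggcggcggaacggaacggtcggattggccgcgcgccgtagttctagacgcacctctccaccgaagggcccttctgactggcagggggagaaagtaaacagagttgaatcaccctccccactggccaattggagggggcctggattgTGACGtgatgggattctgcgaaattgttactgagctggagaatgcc
Thrb (the more upstream of its 2 annotated starts), chr14:17660710-17660959, plus strand: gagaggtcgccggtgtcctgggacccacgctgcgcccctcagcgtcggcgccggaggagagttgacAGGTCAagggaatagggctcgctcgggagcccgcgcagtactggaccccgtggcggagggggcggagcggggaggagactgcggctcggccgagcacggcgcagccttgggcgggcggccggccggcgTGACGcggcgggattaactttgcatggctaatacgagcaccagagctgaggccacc
Motifs were searched on both strands: the full cAMP response element TGACGTCA and its shorter form TGACG, the nuclear receptor hexamer AGGTCA with its direct repeat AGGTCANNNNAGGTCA, and the TATA box TATAAA. The full element lies within the matches counted for the shorter form. In the Dio2 window TGACGTCA stood 95 to 88 bases before the start and TATAAA 30 to 25 bases before it. Of 32851 promoter windows of this length, 1.55% held TGACGTCA and 12.4% held TATAAA. The Klf9 window held TGACG 46 to 42 bases before the start, and the Thrb window held TGACG 56 to 52 bases and AGGTCA 184 to 179 bases before it. TGACG occurred in 17.8% of all windows, AGGTCA in 14.0%, and the direct repeat in 0.0152%. The direct repeat is in none of the windows of the 5 of these genes that the RefSeq table holds. These matches describe letters in a window, and no binding was measured. The RefSeq start of Dio2 lies 600 bases from the start in GENCODE M21, and that of Thrb 699 bases from it, while the 2 annotations give the same start for Klf9.

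Libraries held 15699912 to 25633413 estimated counts, so that 3 counts, taken here as the floor of detection, correspond to 0.117 to 0.191 CPM (counts scaled to the library total) before TMM. Levels below are CPM scaled further by the trimmed mean of M-values (TMM) and are used to compare 1 gene between libraries, and TPM values, which are also divided by transcript length, are used wherever 2 genes are compared. Adipocyte marker genes were detected in all 12 libraries, but the libraries of a depot differed in what else they held. The summed CPM of 14 skeletal muscle markers was 20740, 14820 and 2472 in BAT and 17510 in RWAT replicate 3, against 19.7 to 87.2 in the other 8 libraries. The summed CPM of 9 adipocyte markers ran from 3005 in RWAT replicate 3 to 29900 in IWAT replicate 1, and that of 10 macrophage markers from 955 in BAT replicate 1 to 7425 in EWAT replicate 2. Every marker of the muscle, adipocyte, brown adipocyte and macrophage lists was above 0 in each depot. In bulk tissue, fewer cells of a type and less RNA per cell cannot be told apart. The epididymis markers summed to 1671 in EWAT replicate 1 and to 19.7 or less elsewhere. In edgeR's quasi-likelihood test over 19154 genes, 0.512% of genes were called at an adjusted p under 0.05 between any depots, and 0 of the 5 tested members were.

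**Figure D1:**
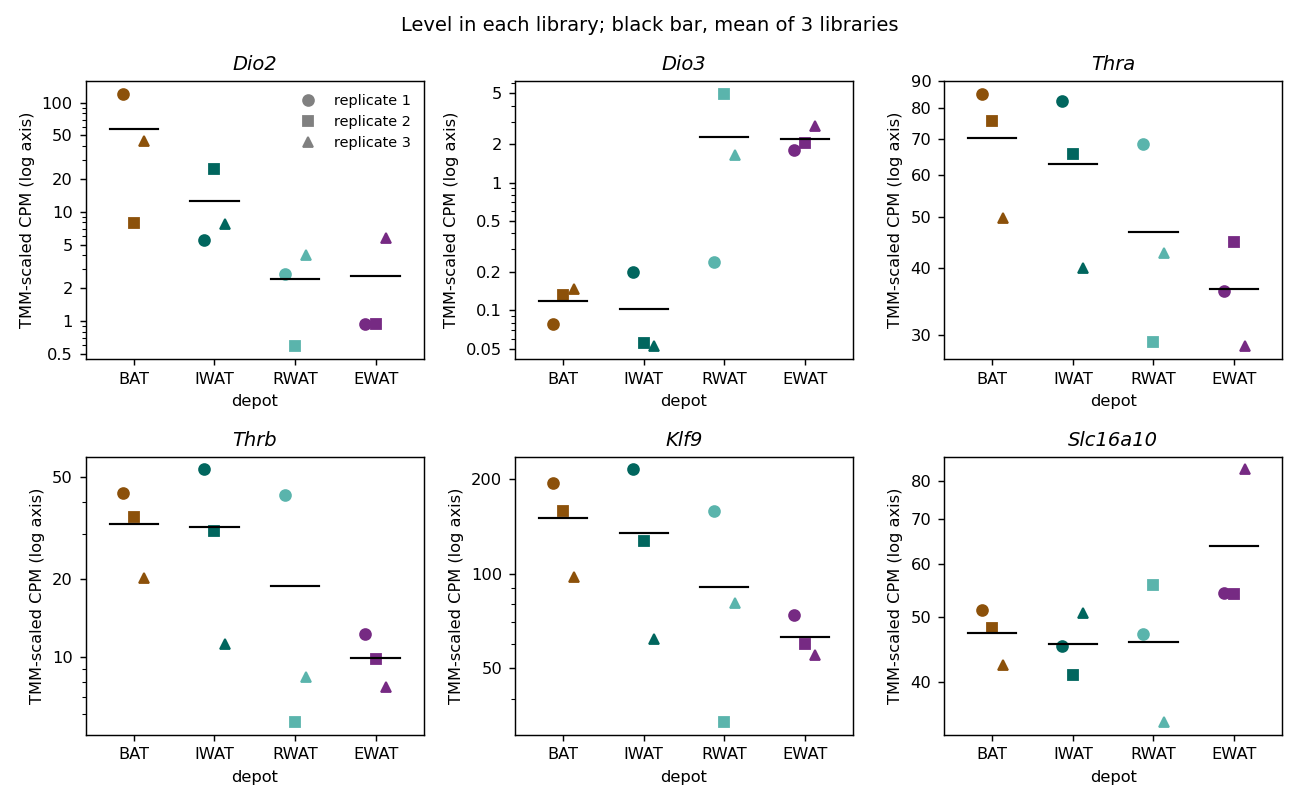
TMM-scaled CPM (log axes, each with its own range) of Dio2, Dio3, Thra, Thrb, Klf9 and Slc16a10 by depot; each point is a library, its shape the replicate number, and the bar the mean of 3 libraries. Dio2 spans 206-fold with its highest library in BAT, Dio3 is above 1 CPM in EWAT and in RWAT replicates 2 and 3, and Slc16a10 stays between 34.9 and 83.2 CPM.

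Dio2 (ENSMUSG00000007682, GRCm38 chromosome 12, 90724552 to 90738438, minus strand, protein coding) was highest in brown fat, and its range across the 12 libraries was 206-fold. The BAT libraries held 121, 7.98 and 44.8 CPM in replicates 1, 2 and 3. The IWAT libraries held 5.58, 24.5 and 7.68 CPM. The RWAT libraries held 2.68, 0.586 and 4.02 CPM, and the EWAT libraries 0.950, 0.942 and 5.80 CPM. BAT replicate 2 was thus close to IWAT replicate 3 and below IWAT replicate 2, so BAT and IWAT overlapped. By mean the order was BAT (57.8 ± 57.5 CPM, SD, n = 3), IWAT (12.6 ± 10.4), EWAT (2.56 ± 2.80) and RWAT (2.43 ± 1.73). The highest library of a depot held 15.1 times the lowest in BAT, 4.40 times in IWAT, 6.15 times in EWAT and 6.86 times in RWAT.

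On the CPM scale every BAT library was above every EWAT library and every RWAT library, and every IWAT library was above every RWAT library. Of all genes tested, 19.1% stood without overlap in the direction BAT over EWAT, 7.42% in the direction BAT over RWAT and 2.7% in the direction IWAT over RWAT. In TPM, where BAT held 13.3, 1.47 and 9.81, IWAT 0.870, 4.84 and 2.25, RWAT 0.610, 0.170 and 1.07 and EWAT 0.220, 0.240 and 1.75, only BAT and RWAT did not overlap. The lowest BAT library lay below the highest EWAT library on that scale, and the lowest IWAT library below the highest RWAT library.

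The fitted log2 fold change of Dio2 in BAT over the mean of the white depots was 3.76 (SE 0.76), and its adjusted p in edgeR's quasi-likelihood test was 0.092. It was 4.49 (SE 1.19, adjusted p 0.0703) over EWAT, 4.58 (SE 1.19, adjusted p 0.319) over RWAT and 2.20 (SE 1.06, adjusted p 0.998) over IWAT by the same edgeR test. None passed the threshold of 0.05, in comparisons that called 0.0992%, 0.783%, 0.0574% and 0.0104% of all genes. Neighbours in the order of depots differed by less than their spread allowed the test to call: IWAT over EWAT was 2.30 (SE 1.09) and EWAT over RWAT 0.08 (SE 1.07) on the log2 scale, with edgeR adjusted p of 0.325 and 0.989. IWAT over RWAT was 2.38 (SE 1.1) with an edgeR adjusted p of 0.871. With 1 library left out, the fitted difference ranged from 2.63 to 4.28 over the white mean, 3.37 to 5.92 over EWAT, 3.45 to 5.16 over RWAT and 1.07 to 3.12 over IWAT, each lowest without BAT replicate 1. DESeq2, run as an alternative on the same counts, called Dio2 in BAT against the white mean (adjusted p 0.000553), EWAT (0.000344) and RWAT (0.00122), while it called 4.96%, 16.8% and 1.74% of all genes there.

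Taken as a single value, the mean log2 CPM of Dio2 was 5.13 in the 3 BAT and 1.67 in the 9 white libraries. The difference of 3.46 had p = 0.0182 in a two-sided exact permutation test over libraries, or 0.0364 after Benjamini-Hochberg adjustment over the 2 such tests made, where the smallest p the design allows is 0.00909. This test treats the 9 white libraries as 1 group, although they come from 3 depots with unlike Dio2 levels. It was also chosen with earlier results of these data known, so the adjustment covers only part of that choice. On log2(TPM + 0.1) the difference was 2.68, with an exact permutation p of 0.0364 before adjustment. With 1 BAT library left out, the smallest p the design allows rises to 0.0364, so a higher p does not by itself mark a library on which the CPM result rests. The exact permutation p was 0.0727 without BAT replicate 1 (difference 2.57) and likewise without BAT replicate 3 (difference 3.28). It was 0.0364 without BAT replicate 2 (difference 4.53).

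Dio2 and the brown adipocyte markers were highest in the same 3 libraries, and their orders differed in part further down. The summed CPM of 10 brown adipocyte markers, among them Ucp1, Cidea and Cox7a1, was 5872, 275 and 1371 in BAT replicates 1, 2 and 3 and 328, 482 and 62.6 in IWAT. It was 113, 7.06 and 49.97 in RWAT and 7.11 to 22.6 in EWAT. At least Cox7a1 of these markers is used in muscle as well as in brown fat, so this sum and the muscle sum are not independent. RWAT replicate 3, with 49.97 CPM in this sum, held 0.163 CPM of Ucp1. The 3 libraries with the highest Dio2 were the same 3 that were highest in the brown adipocyte sum, BAT replicate 1, BAT replicate 3 and IWAT replicate 2. RWAT replicate 2 was last in both. EWAT replicate 3 ranked 6 of 12 in Dio2 and 10 in the brown adipocyte sum. IWAT replicate 1 ranked 7 in Dio2 and 4 in that sum, and RWAT replicate 1 ranked 9 and 6. The muscle marker sums were also high in BAT. BAT replicates 1, 2 and 3 ranked 1, 3 and 4 of 12 in the muscle sum and 1, 4 and 2 in Dio2. BAT replicates 1 and 2, both high in muscle markers, held 121 and 7.98 CPM of Dio2. RWAT replicate 3 held 17510 CPM of muscle markers and 4.02 CPM of Dio2. The Dio2 difference of BAT over RWAT was 5.16 on the log2 scale without RWAT replicate 3 and 3.45 without BAT replicate 1. The part of cell composition in the Dio2 difference was not tested.

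**Figure D2:**
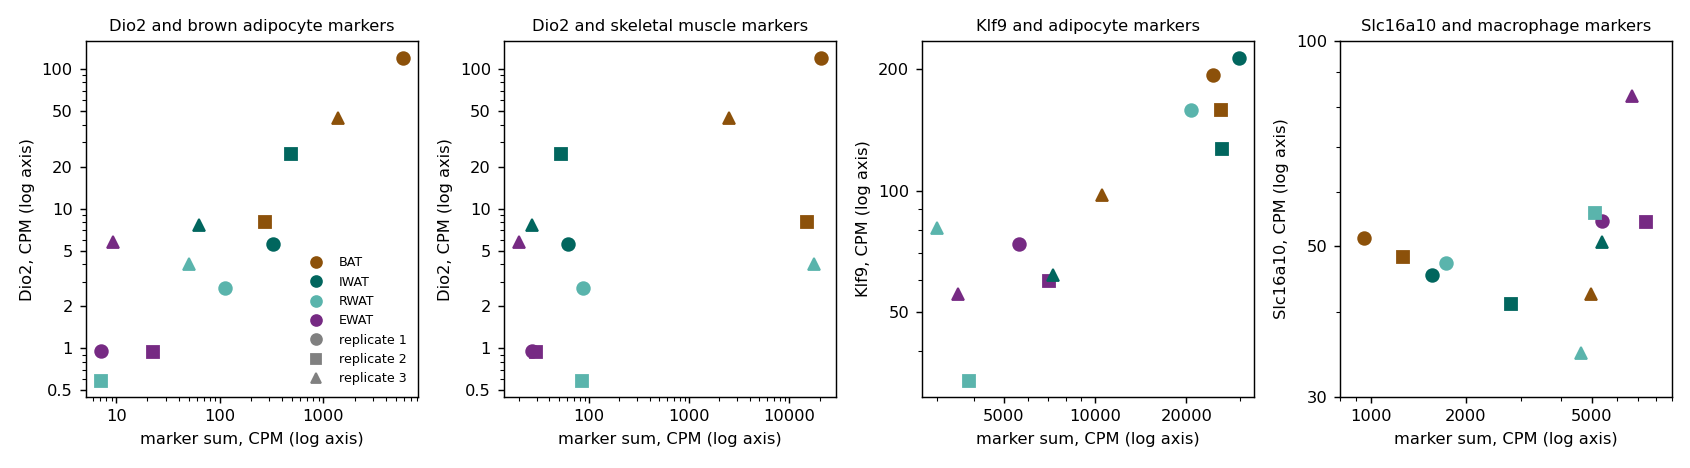
CPM of Dio2, Klf9 and Slc16a10 against the summed CPM of a marker list in the same library (all axes logarithmic; colour, depot; shape, replicate number). The 3 highest Dio2 libraries lie at the right of the brown adipocyte panel, in the muscle panel RWAT replicate 3 and BAT replicates 1 and 2 lie at the right with Dio2 of 4.02, 121 and 7.98 CPM, and the 5 libraries highest in Klf9 are the 5 with adipocyte sums of 20790 or more.

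The genes most like Dio2 across the 12 libraries were ranked by Pearson r of log2 CPM among 9809 genes. The highest were Cyth1, a guanine nucleotide exchange factor for ARF proteins (r = 0.931), the sodium bicarbonate cotransporter Slc4a4 (0.904), the purine nucleoside phosphorylase Pnp (0.887), the ubiquitin ligase Rnf25 (0.887) and Cox7a1, a subunit of cytochrome c oxidase used in brown fat and muscle (0.879). Cox7a1 is itself one of the brown adipocyte markers. These values describe 12 libraries, 3 of each depot, and are not a test. Slc4a4 held 254, 73.0 and 117 CPM in BAT, and its BAT library with the least was, as for Dio2, replicate 2. With the other members, r for Dio2 was 0.561 (Thra), 0.556 (Thrb), 0.586 (Klf9) and -0.243 (Slc16a10), so Dio2 did not have the pattern that the receptors and Klf9 share.

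Dio1 (chromosome 4, 107291465 to 107307169, minus strand) was at or under the floor of 3 counts in every library. Its 12 libraries held 9 counts in all and at most 3 in any one, and no comparison between depots was made.

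Dio3, the inactivating deiodinase (chromosome 12, 110279068 to 110281097, plus strand), is not one of the 6 genes but completes the enzyme family. By mean it was higher in EWAT and RWAT than in BAT and IWAT, the reverse of Dio2. Within a depot the 2 genes did not always run opposite: EWAT replicate 3 was the highest of its depot in both (5.80 CPM of Dio2 and 2.75 CPM of Dio3). Dio3 had 1, 2 and 3 counts in the BAT libraries and 4, 1 and 1 in IWAT. EWAT held 34, 48 and 55 counts, and RWAT 4, 110 and 30. BAT and IWAT were therefore close to the floor in each library, EWAT was above it in all 3, and RWAT was split. Pooled over libraries and divided by depth, EWAT held 17.7 times the Dio3 of BAT (95% interval 7.9 to 49.2) and 21 times that of IWAT (9.4 to 58.2), and RWAT 20.3 times that of BAT (9.1 to 56.1). These intervals cover counting error only. EdgeR's adjusted p for Dio3 was 0.0704 between any depots, 0.0638 for BAT against EWAT and 0.319 for BAT against RWAT, and none passed. DESeq2 gave an adjusted p of 3.65e-05 between any depots, 0.00204 for BAT against EWAT and 0.00894 for BAT against RWAT. Over all alternatives run, Dio3 was called between any depots in 5 of 22 and in BAT against EWAT in 5 of 23. RWAT replicate 2 held 110 of the 144 RWAT counts, and without it the fitted log2 difference of BAT over RWAT went from -4.16 to -2.88.

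The balance of the 2 enzymes within a library was compared per length, a comparison chosen after the values were seen. Dio2 exceeded Dio3 in 7 libraries, all of BAT and IWAT and RWAT replicate 1, and Dio3 exceeded Dio2 in 5, all of EWAT and RWAT replicates 2 and 3. The ratio of Dio2 to Dio3 in TPM was 332, 21 and 75.5 in BAT and 9.67, 96.8 and 56.2 in IWAT. It was 3.05, 0.032 and 0.601 in RWAT and 0.137, 0.119 and 0.578 in EWAT. Where Dio3 rests on 1 to 4 counts the size of the ratio is uncertain, but the side of 1 on which it falls is given by the levels: Dio2 TPM of 0.610 to 13.3 against Dio3 TPM of 0.20 or less. RWAT replicate 1 stood with BAT and IWAT, and it also differed from the other RWAT libraries in adipocyte markers (20790 CPM against 3831 and 3005). IWAT replicate 3 and EWAT replicate 2 had similar adipocyte sums (7278 and 7027 CPM) and ratios of 56.2 and 0.119. The part of cell composition in this balance was not tested.

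**Figure D3:**
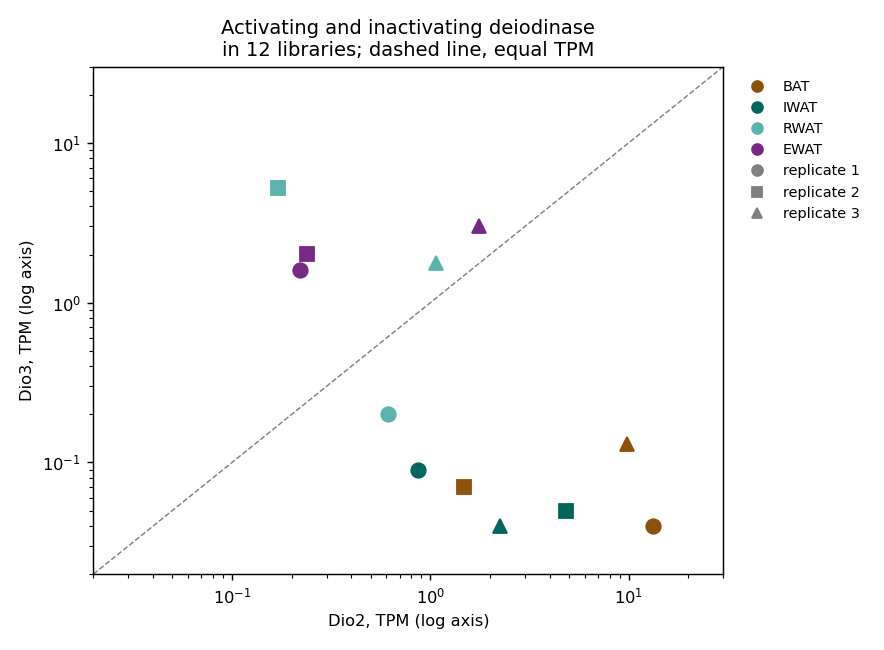
Dio3 against Dio2 in TPM (log axes) for the 12 libraries; colour is depot, shape is replicate number and the dashed line marks equal TPM. The 3 BAT and 3 IWAT libraries and RWAT replicate 1 lie below the line, and the 3 EWAT libraries and RWAT replicates 2 and 3 above it.

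Thra and Thrb were both highest in BAT and IWAT by mean and lowest in EWAT. Thra (ENSMUSG00000058756, chromosome 11, 98740638 to 98769006, plus strand) held 85.3, 75.7 and 49.8 CPM in BAT and 82.7, 65.5 and 40.1 in IWAT. RWAT held 68.5, 29.2 and 42.8 CPM, and EWAT 36.4, 44.8 and 28.5. Each BAT library was above each EWAT library on this scale, a direction in which 19.1% of all genes tested stood apart, while all other pairs of depots overlapped. In TPM the BAT range of 36.9 to 53.8 and the EWAT range of 31.9 to 43.9 overlapped. The IWAT libraries lay within 48.0 to 49.9 TPM, each above every EWAT library, and the share of all genes in TPM was not computed. The log2 fold change of Thra in BAT over the white mean was 0.56 (SE 0.28, adjusted p 0.308 in edgeR), and over EWAT 0.94 (SE 0.36, adjusted p 0.133 in edgeR).

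Thrb (ENSMUSG00000021779, chromosome 14, 17660261 to 18038090, plus strand) was lower and spread more widely. BAT held 43.1, 34.8 and 20.4 CPM and IWAT 53.4, 30.7 and 11.3. RWAT held 42.4, 5.60 and 8.35 CPM, and EWAT 12.4, 9.86 and 7.67. The 9.53-fold range of Thrb lay mainly within depots: RWAT replicate 1 held 7.58 times the level of RWAT replicate 2. BAT was above EWAT without overlap, in CPM and in TPM, and 19.1% of all genes tested stood apart in that direction in CPM. In TPM IWAT (3.57 to 9.32) also lay above EWAT (2.66 to 3.14) without overlap, while in CPM the 2 depots overlapped. The shares in TPM were not computed. The log2 fold change over EWAT was 1.72 (SE 0.75, adjusted p 0.170 in edgeR) and over the white mean 0.85 (SE 0.57, adjusted p 0.401 in edgeR). BAT and IWAT were nearly equal, with a log2 difference of 0.04 (SE 0.73) that was -0.13 without TMM scaling. Without RWAT replicate 1 the difference of BAT over RWAT went from 0.80 to 2.23 on the log2 scale, uncalled in either case.

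Per length, Thra was the more abundant receptor in all 12 libraries, at 5.36 to 18.6 times the TPM of Thrb. The ratio was 6.90, 7.53 and 8.91 in BAT and 10.2, 15.5 and 12.7 in EWAT, which did not overlap. IWAT, at 5.36, 7.35 and 13.5, and RWAT, at 5.54, 18.6 and 15.7, each covered most of the whole range. The mean log2 ratio was 2.95 in BAT and 3.41 in white libraries, a difference of -0.46 with p = 0.264 in a two-sided exact permutation test (adjusted p 0.264 over 2 tests). The Thra count carries a limit of annotation. Thra overlaps Nr1d1, the gene of the clock repressor REV-ERB alpha on the opposite strand, over 1075 bases, of which 263 are exonic in both, and whether reads were counted by strand is not given. The authors' posterior SD of the count was the same to 2 decimals for both genes in all 12 libraries, 2.05 to 3.75 counts, or at most 0.491% of the Thra count. Reads of the shared exon that were assigned wholly to 1 gene would not show in that SD.

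Klf9 (ENSMUSG00000033863, chromosome 19, 23141226 to 23168134, plus strand) had the pattern of the receptors. BAT held 194, 158 and 97.6 CPM, and IWAT 214, 127 and 61.8. RWAT held 158, 33.8 and 80.8 CPM, and EWAT 73.8, 59.7 and 55.4. BAT lay above EWAT without overlap in CPM, as did 19.1% of all genes tested, and also in TPM (38.4 to 52.4 against 27.0 to 30.8). The other pairs overlapped in CPM. In TPM IWAT (32.55 to 60.26) also lay above EWAT without overlap, and the shares of all genes in TPM were not computed. The log2 fold change was 1.25 (SE 0.55, adjusted p 0.172 in edgeR) over EWAT and 0.71 (SE 0.43, adjusted p 0.365 in edgeR) over the white mean. BAT over IWAT was 0.16 (SE 0.54), and it was -0.03 without TMM scaling.

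Klf9, Thra and Thrb rose and fell in the same libraries. Over the 12 libraries Pearson r of log2 CPM with Klf9 was 0.966 for Thrb and 0.955 for Thra, as a description of libraries that share depots. IWAT replicate 1, BAT replicates 1 and 2 and RWAT replicate 1 were the 4 highest libraries for each of the 3 genes, and RWAT replicate 2 was the lowest for Klf9 and Thrb and next to lowest for Thra. For each of the 3 genes, replicate 1 was the highest of its depot in BAT, IWAT and RWAT. Replicate 3 was the lowest of its depot in BAT, IWAT and EWAT, and replicate 2 in RWAT. The labels do not say whether a replicate number marks an animal. The genes most like Klf9 among 9808 were the insulin-responsive glucose transporter Slc2a4 (r = 0.971), the receptor tyrosine phosphatase Ptprd (0.970), Mturn (0.970), the nuclear envelope protein gene Sun1 (0.969) and Prepl (0.968). The 5 libraries with the highest adipocyte marker sums (20790 to 29900 CPM) were the 5 highest for Klf9, Thra and Thrb, and the same 5 had the lowest macrophage sums (955 to 2788 CPM against 4636 to 7425 in the other 7). Among the remaining RWAT and EWAT libraries the order followed these sums only in part. RWAT replicate 3 held more Klf9 than replicate 2, with a lower adipocyte sum (3005 against 3831 CPM) and a lower macrophage sum (4636 against 5114 CPM). EWAT replicate 2 held the most Thra of its depot, with the depot's highest adipocyte sum (7027 CPM) and its highest macrophage sum (7425 CPM). The part of this composition in the differences between depots was not tested.

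Slc16a10 (ENSMUSG00000019838, chromosome 10, 40033532 to 40142258, minus strand) had the narrowest CPM range of the 5 tested members, 34.9 to 83.2 CPM. In TPM it ran from 6.09 to 27.0, a wider range in proportion than that of Thra (31.9 to 59.3) or Klf9 (17.3 to 64.6). BAT held 51.3, 48.2 and 42.5 CPM, and IWAT 45.3, 41.0 and 50.7. RWAT held 47.2, 55.9 and 34.9 CPM, and EWAT 54.3, 54.2 and 83.2. EWAT was above BAT and above IWAT without overlap, in directions in which 17.7% and 13.1% of all genes tested stood apart. In TPM the EWAT libraries (13.6 to 27.0) were again above BAT (6.09 to 10.0) and overlapped IWAT (7.64 to 15.99). The log2 fold change of BAT over EWAT was -0.43 (SE 0.22, adjusted p 0.224 in edgeR), and of IWAT over EWAT -0.48 (SE 0.22, adjusted p 0.314 in edgeR). BAT over the white mean was -0.11 (SE 0.18, adjusted p 0.708 in edgeR). Its highest library, EWAT replicate 3, had the second highest macrophage sum (6729 CPM) and an adipocyte sum of 3537 CPM. Its lowest, RWAT replicate 3, had the lowest adipocyte sum (3005 CPM) and a macrophage sum of 4636 CPM. EWAT replicate 2, with the highest macrophage sum (7425 CPM), held 54.2 CPM of Slc16a10. The part of cell composition was not tested.

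**Figure D4:**
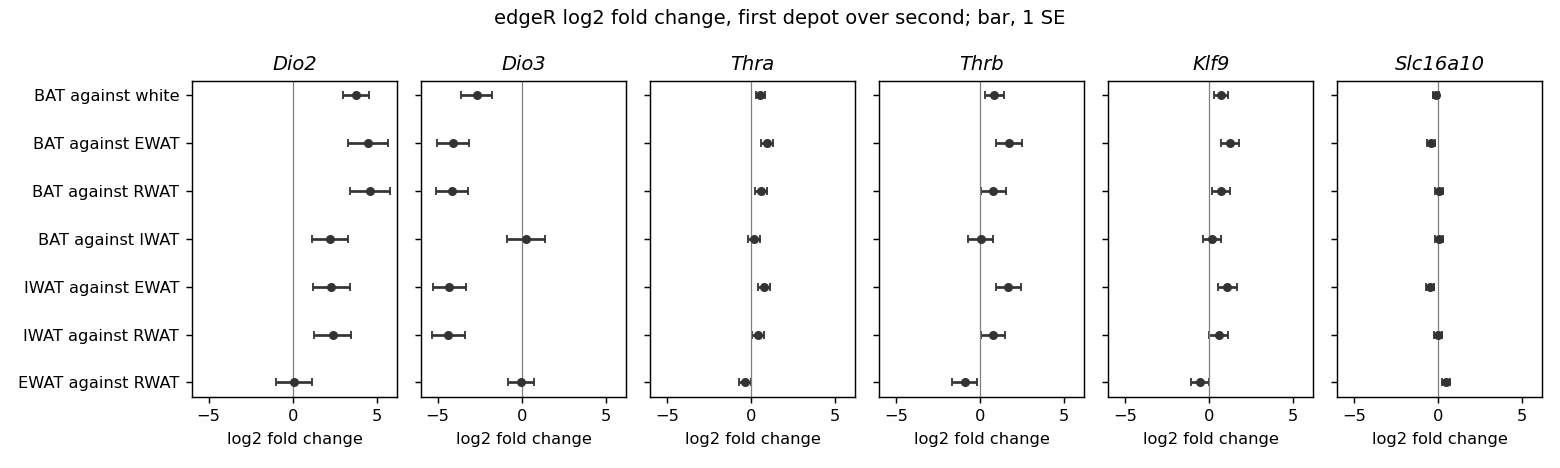
Fitted log2 fold changes (horizontal axis) of the 5 tested members and of Dio3 in 7 comparisons of depots, first depot over second, with bars of 1 SE from edgeR. Dio2 lies at 3.76 to 4.58 in BAT over white fat, EWAT and RWAT with SE of 0.76 to 1.19, Dio3 lies on the opposite side there, and Slc16a10 stays within 0.48 of 0.

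Counted together, 0 of the 5 tested members were called by edgeR in any of the 8 comparisons. DESeq2 called Dio2 between any depots, where it called 11.2% of all genes, and in BAT against the white mean, EWAT and RWAT. At an unadjusted p under 0.05 in edgeR, 4 of 5 (Dio2, Thra, Thrb and Klf9) passed in BAT against EWAT, all of them higher in BAT. Of all genes 27.7% passed the same cut, counted in either direction. Thra, Thrb and Klf9 ran together across the libraries, so the 4 are not independent of each other. In BAT against the white mean 1 of 5 (Dio2) passed it, against 18.1% of all genes, which is a share near the background. In BAT against RWAT 1 of 5 (Dio2) passed unadjusted against 14.8%, in IWAT against EWAT 1 of 5 (Thrb) against 16.2%, and in BAT against IWAT, IWAT against RWAT and EWAT against RWAT 0 of 5 against 3.85%, 4.42% and 9.04%. Between any depots 1 of 5 (Dio2) passed unadjusted against 17.1%. The comparisons of IWAT with EWAT, of EWAT with RWAT and of IWAT with RWAT called 0.345%, 0.0418% and 0.0% of all genes.

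Other genes of the pathway were described by lists, by the count called in BAT against the white mean and by the median log2 fold change, beside a median of -0.07 over all genes. In that comparison edgeR called 0.0992% of all genes, and 18.1% passed unadjusted. In transport and metabolism 0 of 9 tested genes were called and the median was -0.29. The amino acid transporter subunits Slc7a5 and Slc3a2 were at -1.59 (SE 0.68) and -0.24 (SE 0.14). Slc7a5 held 2.68, 3.21 and 12.4 CPM in BAT against 19.4, 65.5 and 29.6 in EWAT, without overlap, a direction in which 17.7% of all genes tested stood apart. The sulfotransferase gene Sult1a1 was at 0.67 (SE 0.64). Across the 12 libraries r of Slc7a5 with Klf9 was -0.863.

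The lists of genes that act on the Dio2 protein or build selenoproteins had medians near 0. In the list of deiodinase 2 ubiquitination and turnover 0 of 11 genes were called, with a median of 0.20; the ubiquitin ligase March6 (TEB4) was at 0.20 (SE 0.15) and the elongin subunit Elob at 0.33 (SE 0.21). The gene farthest from 0, Wsb1, the ubiquitin ligase adaptor that binds the Dio2 protein, was at -1.04 (adjusted p 0.297 in edgeR). In selenoprotein synthesis 0 of 12 were called, with a median of 0.13. Secisbp2, which recruits the selenocysteine machinery to the SECIS element, was at -0.03 (SE 0.12), its relative Secisbp2l at 0.13 (SE 0.23), and the plasma selenoprotein gene Selenop at -0.14 (SE 0.30). Secisbp2 held 16.4 to 20.8 CPM in all 12 libraries while Dio2 spanned 206-fold. Among receptor partners and coregulators 0 of 18 were called, with a median of 0.09. The receptor partners Rxra and Rxrg were at 0.53 (SE 0.36) and 1.63 (SE 0.61), the corepressor Ncor1 at 0.20 (SE 0.19) and the coactivator Ncoa4 at 0.24 (SE 0.22). Rxrg held 28.5, 12.9 and 8.07 CPM in BAT and 2.74, 2.23 and 1.60 in EWAT, without overlap, as did 19.1% of all genes tested in that direction. Its edgeR adjusted p against the white mean was 0.218. In these 4 lists 3, 0, 1 and 3 genes passed unadjusted, where 18.1% of all genes did. DESeq2, which called 4.96% of all genes, called 1 gene of the 4 lists, the selenophosphate synthetase gene Sephs2, which was at 1.12 in edgeR (adjusted p 0.145). Without TMM scaling the median over all genes moved from -0.07 to -0.46, and with it the signs of March6, Elob, Secisbp2l, Ncor1 and Ncoa4 turned to -0.21, -0.13, -0.27, -0.17 and -0.17.

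The list of known T3 target genes lay higher in BAT: 17 of its 19 tested genes had a log2 fold change above 0 over the white mean, with a median of 2.17, against 8618 of 19154 genes in all. The list was not sorted by whether T3 raises or lowers a gene, so this direction is not a measure of T3 action. Of the 19, 1 was called, Ucp1, the uncoupling protein of brown fat, and 13 passed unadjusted, against 0.0992% and 18.1% of all genes tested. Ucp1 held 2962, 32.2 and 702 CPM in BAT, 47.6, 130 and 21.5 in IWAT, 12.4, 1.31 and 0.163 in RWAT and at most 0.0857 in EWAT. BAT replicate 2 therefore lay below 2 of the 3 IWAT libraries in Ucp1. The fitted log2 fold change of 8.92 (SE 1.25, edgeR adjusted p 0.0356) depends on the prior count, because EWAT lies under the floor. In BAT against EWAT, where 0.783% of all genes were called, the called targets were Ucp1 and Ppargc1a, the coactivator of mitochondrial genes. Ppargc1a held 30.7, 14.9 and 14.97 CPM in BAT and 1.05, 1.72 and 0.751 in EWAT (log2 fold change 4.09, SE 0.76, edgeR adjusted p 0.0473). The lipogenic targets Thrsp and Me1 were at 2.69 (SE 1.06) and 1.86 (SE 1.04) over the white mean with edgeR adjusted p of 0.235 and 0.341. Several of the targets are also adipocyte or muscle genes, among them Slc2a4, Atp2a1 and Myh7, and they move with the marker sums given above. These calls were fragile: of the 12 fits that left out 1 library, the Ucp1 call against the white mean was lost in 9 and kept without BAT replicate 2, RWAT replicate 1 or RWAT replicate 3, and the calls of Ucp1 and Ppargc1a against EWAT were lost in 7 and 6. The list had 9 called genes without RWAT replicate 1, where 1.27% of all genes were called.

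The list of the cAMP input to Dio2 had 0 of 14 genes called and a median of 0.87, with 12 above 0. Unadjusted, 7 passed, against 18.1% of all genes. DESeq2, which called 4.96% of all genes, called Adrb1 and Gnas. The adrenergic receptor gene Adrb3 held 208, 346 and 70.8 CPM in BAT, 163, 193 and 38.0 in IWAT, 232, 12.5 and 15.2 in RWAT and 46.5, 43.9 and 26.9 in EWAT. Its log2 fold change over the white mean was 1.45 (SE 0.79, edgeR adjusted p 0.331). The BAT library with the most Adrb3, replicate 2, was the one with the least Dio2 and Ucp1. Gnas, which encodes the stimulatory G protein subunit, was at 1.00 (SE 0.26, edgeR adjusted p 0.132), and the protein kinase A subunit gene Prkar2b at 1.33 (SE 0.64, edgeR adjusted p 0.294).

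**Figure D5:**
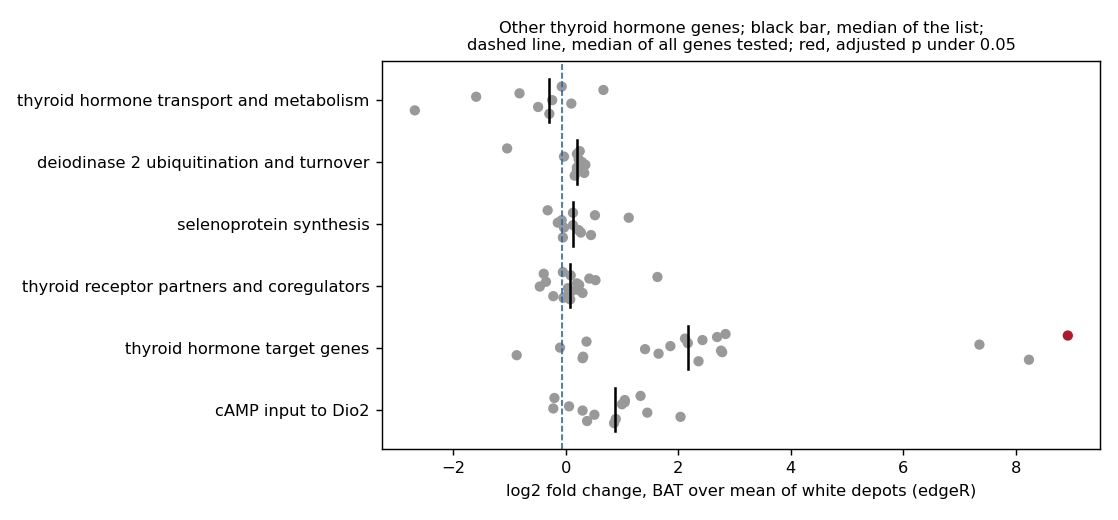
Log2 fold change in BAT over the mean of the white depots (horizontal axis, edgeR) of each tested gene in the 6 lists of other thyroid hormone genes; the black bar is the list's median, the dashed line the median of all genes tested, and red marks an adjusted p under 0.05. The medians lie between -0.29 and 0.20 in 4 lists, at 0.87 for cAMP input and at 2.17 for target genes, where Ucp1 is the red point.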

How the data were processed

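Ribosomal RNA was removed from total RNA and the libraries were read as single-end 75-base reads, per the labels' protocols. The submitters' processing notes list RSEM 1.3.0, Trimmomatic 0.36, DESeq2 1.10.1 and the build GRCm38.p4, while for the annotation and strand setting nothing is given in the sources used. Deposited by the authors were RSEM expected counts (estimated counts, not normalised) and TPM per gene, and per the file headers a posterior SD of each count. Gene positions and types come from GENCODE M21 (GRCm38), which matched 47224 of 47729 gene identifiers, and promoters from RefSeq, which had 5 of the 6 members.

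Expected counts were rounded, filtered with filterByExpr and scaled by TMM, and 19154 genes were tested with edgeR 4.0.16 (R 4.3.3) in 1 quasi-likelihood fit that held all 12 libraries and a coefficient for each depot, adjusted by Benjamini-Hochberg over all genes and called under 0.05. The fitted biological coefficient of variation was 0.448. The white mean is the mean of the fitted log2 levels of the 3 white depots. Alternatives were DESeq2 1.42.0, limma-voom and limma 3.58.1 on log2(TPM + 0.1) and log2(TPM + 1), other scalings and filters, a replicate block and left-out libraries. No pair of libraries of a depot held identical values (12 pairs).

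The members, lists and tests were chosen with earlier results of these data known. Genes named outside the 6 members are a fixed set of core pathway genes, up to 4 called genes per list or, with none called, its 2 with the highest mean CPM, and the 5 genes with the highest Pearson r with Dio2 and with Klf9 among tested genes with a mean log2 CPM of at least 3, leaving out predicted genes; Slc2a4, Atp2a1, Myh7, Wsb1, Sephs2 and Adrb1 were named after their values were seen. One gene of the fixed set is not reported here.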

Additional observations from a re-analysis of the deposited data

How the results depend on the processing

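The member counts were 0 in every comparison by edgeR. They became 1 with DESeq2 between any depots and in BAT against white fat, EWAT and RWAT, and 1 in BAT against EWAT when only those 2 depots were fitted (Thrb), where 5.81% of all genes were called. Leaving out 1 library gave 0 to 1 in BAT against EWAT, the 1 being Dio2 without BAT replicate 3, where 9.7% of all genes were called. With the replicate number as a block 3 members were called in BAT against EWAT (Dio2, Thra and Thrb), and 18.5% of all genes. Same-numbered libraries deviated together in part: of 18 pairs 10 correlated over 0.1 (range -0.347 to 0.677), and 7 of 12 libraries correlated best with their own number. No label links the numbers, so they are not taken as pairs in the main fit. Whether same-numbered libraries share an animal is not known. The exact permutation difference of Dio2 ranged from 2.57 to 4.53 over left-out libraries. Scaling without TMM moved the median of BAT against white fat from -0.066 to -0.464, and TPM moved it to -0.578 (pseudocount 0.1) and -0.405 (pseudocount 1); the cause of changes not named here was not tested. Depth limits Dio1 and Dio3 most, at 3 counts or fewer in several libraries.

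Counts of called genes, edgeR first, then leaving out 1 library. Between any depots 98 genes were called, and 11 to 1054 with 1 library left out (lowest without EWAT replicate 2, highest without EWAT replicate 1). DESeq2 called 2151, limma-voom 23, limma on log2(TPM + 0.1) 188 and on log2(TPM + 1) 149, no filter 436, the block 171, and leaving out RWAT replicates 1 and 3 together 270. BAT against white called 19, and 1 to 263 with a library left out (without IWAT replicate 1 and without RWAT replicate 1); DESeq2 gave 950, limma-voom 3, the TPM fits 23 and 3, then 11 without TMM, 47 without a filter, 649 with the block and 207 without the 2 RWAT libraries. BAT against EWAT called 150, and 6 to 1996 (without BAT replicate 2 and without BAT replicate 3); DESeq2 gave 3210, limma-voom 19, log2(TPM + 0.1) 331, no TMM 233, the block 3542, without the 2 RWAT libraries 427 and only these depots 1051. BAT against IWAT called 2, and 0 to 97 (highest without RWAT replicate 3); DESeq2 gave 170, the TPM fits 5 and 4, no filter 4, the block 0, without the 2 RWAT libraries 82 and only these depots 0. BAT against RWAT called 11, and 0 to 45 (lowest without BAT replicate 3, highest without RWAT replicate 3); DESeq2 gave 333, limma-voom 1, the TPM fits 71 and 56, the block 1, and 0 without the 2 RWAT libraries or with only these depots. IWAT against EWAT called 66, and 7 to 1097 (without IWAT replicate 2 and without EWAT replicate 1); DESeq2 gave 1138, limma-voom 25, the TPM fits 178 and 158, the block 123 and only these depots 102. IWAT against RWAT called 0 (847 unadjusted), and 0 to 3; DESeq2 gave 179 and the TPM fits 12 and 10. EWAT against RWAT called 8, and 0 to 804 (highest without EWAT replicate 1); DESeq2 gave 546, the TPM fits 71 and 65, and 0 without the 2 RWAT libraries or with only these depots.

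For BAT against white, the target list went from 1 called gene to 6 with DESeq2, 0 with limma-voom and both TPM fits, 2 without a filter, 6 with the block, 4 without the 2 RWAT libraries and 0 to 9 with 1 library left out. The cAMP list went from 0 to 2 with DESeq2 and with the block (Adrb1 with Gnas or Adcy6) and 0 to 2 with a library left out, selenoprotein synthesis to 1 (Sephs2) with DESeq2 and the block, and transport and metabolism to 1 (Dio3) without the 2 RWAT libraries.

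Small log2 fold changes changed sign, none of them called. Ranges are over left-out libraries. EWAT against RWAT: Dio2 -1.34 to 0.66, and -0.05 with limma-voom and with log2(TPM + 0.1); Dio3 -0.59 to 1.22, and 0.65, 0.63, 0.20 and, with the block, 0.31; without the 2 RWAT libraries Klf9 0.88 (range -0.93 to 0.13), Thra 0.31 (-0.61 to 0.02) and Thrb 0.81 (-1.36 to 0.51). BAT against IWAT, with the TPM fits and then without TMM: Klf9 -0.06, -0.06 and -0.03 (-0.19 to 0.66), Thra -0.14, -0.13 and -0.05 (-0.08 to 0.42), Thrb -0.07, -0.07 and -0.13 (-0.37 to 0.64), Slc16a10 -0.29, -0.26 and -0.22 (-0.02 to 0.19), and Dio3 -0.09 to 1.08. Slc16a10 was -0.58, -0.53 and -0.42 in BAT against RWAT, -0.25 without the 2 RWAT libraries (-0.13 to 0.21), 0.01 in IWAT against RWAT with DESeq2, limma-voom, RLE and no filter (-0.17 to 0.16), and -0.18 to 0.03 in BAT against white. In BAT against white, with the TPM fits and then without TMM: Elob -0.26, -0.26 and -0.13, March6 -0.35, -0.34 and -0.21, Ncoa4 -0.22, -0.22 and -0.17, Ncor1 -0.28, -0.28 and -0.17, Secisbp2l -0.46, -0.44 and -0.27. Selenop ranged from -0.58 to 0.07. Secisbp2 was 0.00 with DESeq2 and 0.01 with RLE and without the 2 RWAT libraries (-0.10 to 0.07).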
